A study of Mus musculus with 6 samples.

Results

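The late-numbered miRNAs are the entries of the mouse miRNA array whose registry number is 650 or more. Members were chosen by name. All entries of the form mmu-miR-N with N of 650 or more were taken, except miR-669, miR-689, miR-709, miR-715, miR-720 and their variants, and names ending in an asterisk. This gave 130 of the 611 mouse miRNAs on the array. The number decided membership. However, the selection was made with the detection, level, relation to array brightness and genotype difference of these miRNAs known. Those values are therefore given as descriptions. Below the limit, the 8 entries nearest to it, down to miR-582, were detected on no array, at unscaled signals of −4.37 to 3.90 intensity units. The nearest detected entries were the arms of miR-574. miR-574-3p was detected on 2 of 6 arrays, at 2.80 to 36.3 units, and miR-574-5p on 6 arrays, at 31.0 to 86.6. Just above the limit, miR-652 was detected on 6 arrays, at 225 to 435 units. The 7 members from miR-653 to miR-667 were detected on none, at −3.76 to 1.48, and miR-668 on 2 arrays, at 7.25 to 16.4.

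The RNA came from bone-marrow-derived macrophages (BMDMs) of female C57BL/6 mice, stimulated with lipopolysaccharide (LPS, a bacterial cell-wall component that activates macrophages) for 24 h. The study asked which miRNAs act downstream of Notch signalling when macrophages polarize. Knockout samples 1 to 3 came from MxCre-RBP-J f/f mice and control samples 1 to 3 from MxCre-RBP-J f/+ mice. Titles call the controls WT, but by this genotype they carried a floxed allele too, and mice of both groups carried MxCre and had been given poly(I)-poly(C). Activated Notch receptors reach their target genes through RBP-J, which binds DNA. Cre is driven here by the interferon-responsive Mx promoter, which is active in many cell types, so the deletion is not limited to macrophages. The extent of the deletion was not measured on this array. The ages of the mice and whether replicates came from separate animals are not given in the sources used here, so p-values measure only the spread between these samples.

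A miRNA is cut from a hairpin precursor, and its bases 2 to 8, the seed, guide it to messenger RNAs that it represses. Registry numbers follow the order of registration, so a limit on the number does not select by sequence or function. Many late numbers come from sequencing surveys of small RNA, and some later entries were afterwards taken out of the registry as fragments of other RNAs. Some late entries are mirtrons, which are released by splicing of a short intron and not by the Drosha enzyme, and miR-1224 and miR-702 are known examples. miR-1224 has been studied as a repressor of the transcription factor Sp1 in the LPS response.

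The sequences of the members that carry the results follow, 5′ to 3′, with the seed in capitals, from RefSeq for assembly GRCm38.p6. The first set is shown for miR-1224, which gave most of the signal, and for the other members rich in G and C among those detected on all arrays. The array names miR-1224, miR-652 and miR-702 without an arm, and RefSeq holds both arms of each, so which arm was measured is unknown here.
miR-1224-5p: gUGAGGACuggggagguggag
miR-1224-3p: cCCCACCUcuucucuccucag
miR-705: gGUGGGAGguggggugggca
miR-702-5p: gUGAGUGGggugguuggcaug
miR-702-3p: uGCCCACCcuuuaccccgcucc
miR-1892: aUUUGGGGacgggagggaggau
miR-1895: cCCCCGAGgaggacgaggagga
miR-1904: gUUCUGCUccucuggagggagg
miR-680: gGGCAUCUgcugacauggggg
miR-652-5p: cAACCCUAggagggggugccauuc
miR-652-3p: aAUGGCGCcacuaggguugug

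The miR-1224-5p sequence lies at chr16:20604452-20604472 on the plus strand, within the span of Vwa5b2, and holds 13 G among 21 bases. miR-705 lies at chr6:85336341-85336360 on the minus strand, within the span of Rab11fip5, and holds 14 G among 20. These sequences share the run GGGAGGUGG, and miR-705 shares GUGGGGUGG with miR-702-5p. miR-1892, within the span of Sptssa, and miR-1904, within that of Pde4d, share GGAGGGAGG. miR-680 has 3 loci, on chromosomes 6, 12 and X. Mature sequences were found by name for 75 members and as arms for 35, and 20 were not in the table, among them the detected miR-685, miR-1196 and miR-1897-5p.

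The second set is shown because these members resemble miRNAs outside the set. miR-721 has the seed AGUGCAA of the miR-130 and miR-301 family, and miR-1187 is a UG repeat that shares the run UGUGUGUGUGU with miR-574-5p.
miR-721: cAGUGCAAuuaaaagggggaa
miR-130b-3p: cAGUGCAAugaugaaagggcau
miR-301a-3p: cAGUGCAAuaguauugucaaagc
miR-1187: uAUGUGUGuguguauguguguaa
miR-574-5p: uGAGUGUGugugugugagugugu
Among the detected members with a sequence, only miR-721 shared its seed with another arrayed miRNA that has a RefSeq sequence.

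Each array gave 127 to 141 mouse miRNAs well above background, and no miRNA spot was saturated. The summed signal of all mouse miRNAs ran from 67813 to 84356 units for controls and from 48684 to 62886 for knockouts. The 6 arrays shared a slide, where column 1 held replicates 1 and 2 and column 2 held replicate 3. No row held both genotypes, so row and genotype cannot be told apart. All 3 myeloid and all 3 activated-macrophage miRNAs chosen as markers were detected on all 6 arrays. The summed myeloid signal was 2619 to 3978 units in controls and 1555 to 2858 in knockouts, and the activated-macrophage sum 33277 to 41076 and 22119 to 32396. The markers of neural, liver, muscle, epithelial, stromal, endothelial, lymphoid and erythroid or platelet cells were detected on no array. In such bulk RNA, fewer cells of a type and less RNA per cell cannot be told apart.

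Few late-numbered miRNAs were detected. A miRNA counted as detected on an array when at least 50% of the spots of a probe were flagged well above background by the scanner software. By this rule 11 members were detected on all 6 arrays, 8 on some arrays and 111 on none. Detection on at least 1 array thus reached 14.6% of members, against 34.2% of the 366 other mouse miRNAs without an asterisk. The excluded entries miR-689, miR-709, miR-715 and miR-720, some of which match fragments of ribosomal or transfer RNA, were detected on all 6 arrays.

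Detection was uneven along the numbers. Of 22 members numbered 650 or more and below 680, 1 was detected on all arrays and 2 on some. From 680 to below 720, 3 of 37 were detected on all arrays and 3 on some. miR-721 was the 1 member detected among 17 numbered from 720 to below 800, and none of 22 members from 800 to below 1000 was. From 1000 to below 1200, 1 of 13 was detected on all arrays and 1 on some. miR-1224 is the only member numbered from 1200 to below 1500. From 1500 to below 1900, 3 of 10 members were detected on all arrays and 2 on some, and from 1900 upward 1 of 8 on all. The software's own call per miRNA, which uses its total signal, was more inclusive, at 25 members with a detection call on at least 1 array.

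The members on all 6 arrays were miR-652, miR-680, miR-702, miR-705, miR-721, miR-1187, miR-1224, miR-1892, miR-1895, miR-1897-5p and miR-1904. miR-685 and miR-1896 were detected on 5 arrays, at 9.51 to 35.3 and 8.70 to 17.0 units. miR-671-5p and miR-690 were detected on 4, at 9.43 to 18.8 and 4.87 to 29.1 units. miR-668 and miR-1196 were detected on 2 arrays, the latter at 2.10 to 19.7 units, and miR-706 and miR-1894-3p on 1 array each. These members lay near the limit of detection, and no member was detected on every array of 1 genotype and on none of the other.

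The detected members were richer in G and C than either the undetected members or the other detected miRNAs. The median G+C content was 64.0% over the 10 of 11 members on all 6 arrays that had a sequence. It was 52.3% over 94 of the 111 members detected on none, and 47.7% over 76 of the 93 other miRNAs without an asterisk on all 6 arrays. The members detected on none were thus themselves above the other detected miRNAs. Among the members on all 6 arrays, low values were those of miR-721, at 42.9%, and miR-1187, at 34.8%. Where RefSeq holds a miRNA only as named arms, its value is the mean over those arms. Such means are common among the other miRNAs and can include an arm that was not measured. G+C content can also change how strongly a probe binds, and its part in detection was not tested. Under 80% of the partly detected members and of the other undetected miRNAs had a sequence, so no G+C value is given for those.

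**Figure D1:**
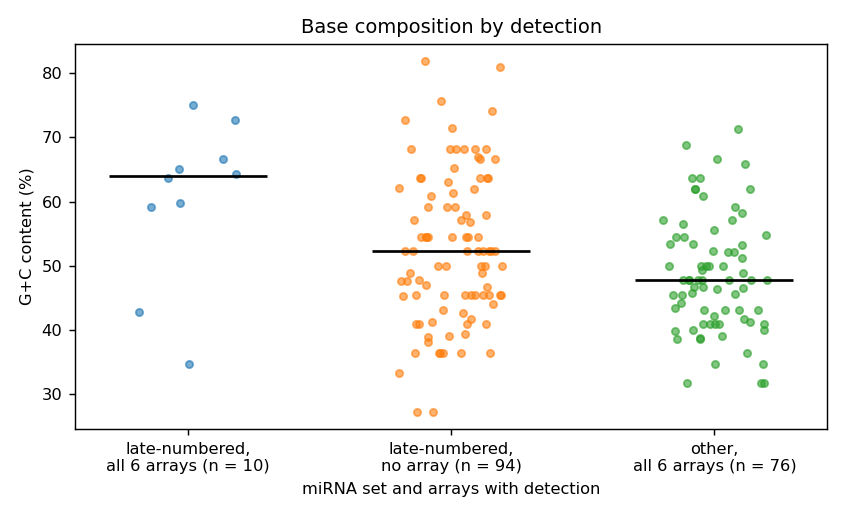
G+C content (percent of bases) of mature sequences, for late-numbered miRNAs and the other mouse miRNAs without an asterisk, by detection. Each point is a miRNA, as the mean over its arms where RefSeq holds only named arms. The bars are medians, which stand at 64.0% for late-numbered miRNAs on all 6 arrays and 47.7% for the others on all 6.

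miR-1224 gave most of the members' signal. Its unscaled signal was 2504, 2815 and 4438 units on control arrays 1 to 3 and 3464, 2850 and 3455 on knockout arrays 1 to 3. The genotypes overlapped, with the lowest and the highest array both among the controls. The mean was 3253 ± 1039 (SD, n = 3) for controls and 3257 ± 352 (SD, n = 3) for knockouts.

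After scaling, the genotypes of miR-1224 separated. Each array was divided by its 75th percentile over 200 probes detected on all arrays, and values are log2 of that ratio. miR-1224 then stood at 3.12, 3.54 and 3.66 in controls 1 to 3 and at 3.93, 3.94 and 3.94 in knockouts. Every knockout array lay above every control array, and the knockout arrays were nearly identical while control 1 was the lowest. The control SD was 0.28 and the knockout SD 0.0027, so the spread lay almost wholly in the controls. The difference, knockout minus control, was 0.50 (SE 0.18, 95% interval 0.081 to 0.91), or 1.41-fold. limma's adjusted p over all 135 miRNAs tested was 0.637. Within slide column 1 the difference was 0.60 and in column 2, with 1 array a genotype, 0.28.

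The separation of miR-1224 depended on the scaling. Without scaling the difference was 0.042, with quantile scaling 0.27, and in the authors' series matrix 0.23, and the genotypes overlapped under each of these. Leaving out control 1 gave 0.34 and leaving out control 3 gave 0.61. Its 2 probes moved together, with differences of 0.48 and 0.50.

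**Figure D2:**
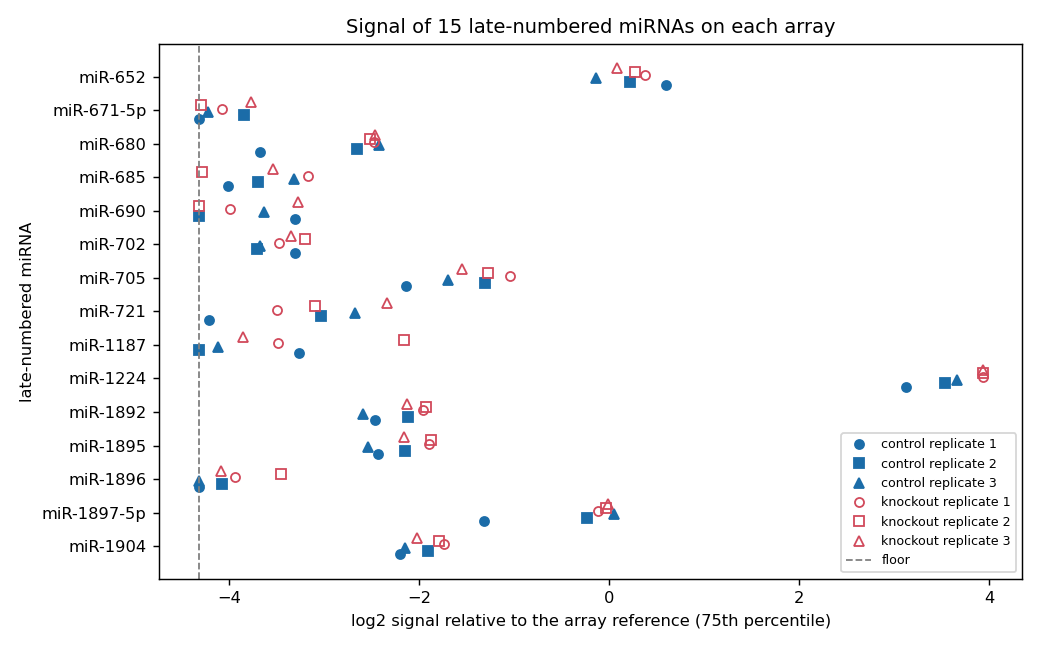
Scaled signal (log2 of the ratio to the 75th percentile of the array) of the 15 late-numbered miRNAs detected on at least 3 arrays, 1 row a miRNA, filled symbols for control and open symbols for knockout arrays. In the row of miR-1224 all open symbols lie to the right of all filled ones, and in the other 14 rows the genotypes overlap.

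As a share of each array, the members made up more of the miRNA signal on the knockout arrays than on the control arrays. The summed signal of detected members was 3445, 3723 and 5726 units in controls and 4436, 3662 and 4348 in knockouts. These sums overlapped, at 4298 ± 1244 and 4149 ± 424 units (SD, n = 3 each, two-sided exact permutation p = 0.9). With 3 against 3 arrays an exact p cannot fall below 0.1.

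The signal of all other mouse miRNAs differed more between the genotypes, at 70312 ± 7493 units in controls and 52737 ± 6934 in knockouts (SD, n = 3 each, exact permutation p = 0.1). The members therefore made up 4.81%, 5.49% and 6.79% of the signal in controls and 7.05%, 7.52% and 7.36% in knockouts. All knockout arrays lay above all control arrays. The difference was 1.62 percentage points (exact permutation p = 0.1, the smallest possible with so few arrays). As the members were chosen with their levels known, this p-value only describes these arrays.

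Most of that difference came from miR-1224, which held 72.7% to 79.5% of the members' summed signal. Without it the share was 1.39% ± 0.116 in controls and 1.57% ± 0.0826 in knockouts (SD, n = 3 each, exact permutation p = 0.2), and the genotypes overlapped. Binding strength differs between probes, so these are shares of signal and not of molecules. The number of members detected was 14, 14 and 17 on control arrays and 15 on each knockout array (exact permutation p = 1.0).

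**Figure D3:**
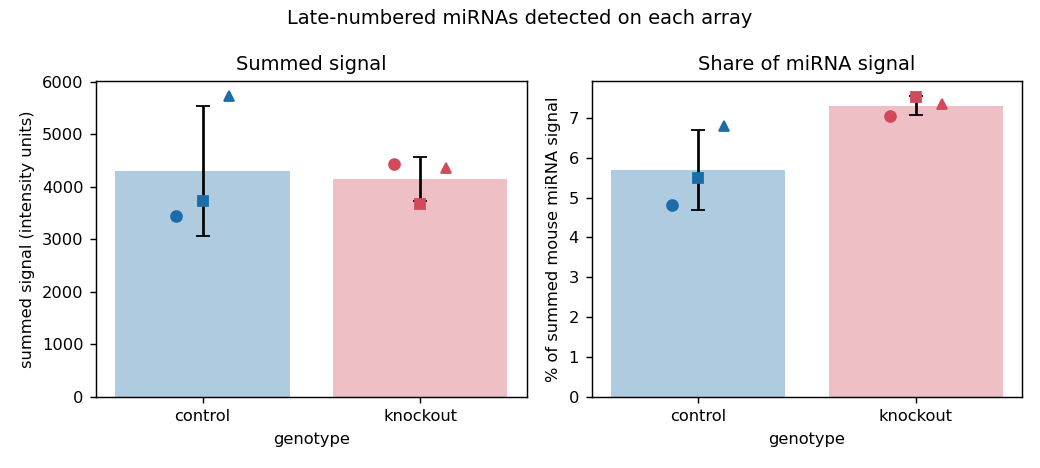
Summed signal of the detected late-numbered miRNAs (intensity units) and their share of the summed mouse miRNA signal (percent) on each array, by genotype. The sums overlap, with control 3 highest at 5726, and the share is 7.05% to 7.52% on knockout arrays against 4.81% to 6.79% on control arrays.

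miR-652, encoded within the span of Tmem164 on the X chromosome, did not follow miR-1224. Its scaled signal was 0.60, 0.21 and −0.14 in controls 1 to 3 and 0.38, 0.27 and 0.083 in knockouts. The highest and the lowest array were both controls, and the knockouts lay between them. The difference was 0.022 (SE 0.21, 95% interval −0.47 to 0.51).

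miR-1897-5p and miR-680 turned on control replicate 1. miR-1897-5p stood at −1.32, −0.24 and 0.045 in controls and −0.12, −0.036 and −0.012 in knockouts. Control 1 alone was low, and the other 5 arrays overlapped. The difference of 0.45 (SE 0.32) became 0.042 without control 1. miR-680 stood at −3.68, −2.66 and −2.42 in controls and −2.48, −2.51 and −2.46 in knockouts. Control 1 was again the low array. The difference of 0.43 (SE 0.30) became 0.054 without it.

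miR-705 and the 3 members numbered 1892, 1895 and 1904 had higher knockout means, but their genotypes overlapped. miR-705 stood at −2.14, −1.31 and −1.69 in controls and −1.04, −1.28 and −1.55 in knockouts, a difference of 0.43 (SE 0.24) that became 0.21 without control 1. miR-1892 stood at −2.47, −2.12 and −2.60 in controls and −1.97, −1.93 and −2.13 in knockouts, a difference of 0.38 (SE 0.18). Of the controls, only control 2 reached into the knockout range of these miRNAs.

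miR-1895 stood at −2.44, −2.15 and −2.54 in controls and −1.90, −1.87 and −2.17 in knockouts, a difference of 0.39 (SE 0.18). miR-1904 stood at −2.21, −1.91 and −2.15 in controls and −1.74, −1.79 and −2.03 in knockouts, a difference of 0.24 (SE 0.17). Control 2 again lay within the knockout range of both, and controls 1 and 3 below it. Unscaled, miR-1892 and miR-1895 hardly varied across the arrays, from 48.9 to 58.2 and from 50.3 to 60.7 units. Without scaling their differences were −0.071 and −0.061.

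miR-721, within the span of Cux1, separated the slide columns rather than the genotypes. Its unscaled signal was 15.6, 29.5 and 54.9 units in controls 1 to 3 and 20.0, 21.7 and 44.5 in knockouts, highest on both arrays of column 2. On the scaled values column 2 exceeded column 1 by 0.95, with no call for slide column after adjustment in limma (adjusted p = 0.57). The genotype difference was 0.33 (SE 0.42), and −0.12 without control 1. Of the miRNAs that share its seed, miR-301a gave 22.8, 23.2 and 36.2 units in controls and 18.7, 13.4 and 27.8 in knockouts, also highest in column 2 within each genotype. miR-130b gave 26.5, 19.4 and 21.8 units in controls and 16.4, 8.45 and 22.0 in knockouts, and its controls did not follow that order.

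miR-1187, the UG repeat, turned on knockout replicate 2. Its unscaled signal was 29.8, 11.3 and 20.2 units in controls and 20.3, 41.7 and 15.6 in knockouts. Knockout 2 was the highest array, although that array had the lowest summed miRNA signal of the 6. The scaled difference was 0.74 (SE 0.44, 95% interval −0.28 to 1.76) and 0.24 without knockout 2. Control 2 lay at the floor of −4.32 on the scaled values. miR-574-5p, which is no member, gave 67.7, 31.0 and 54.4 units in controls and 50.7, 86.6 and 37.3 in knockouts. Its arrays ran in the same order as those of miR-1187, except that control 3 and knockout 1 changed places. Among the weakly detected members, miR-1196 and miR-706 also gave their highest signal, 19.7 and 10.7 units, on knockout 2.

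The genotypes also overlapped for the 5 other tested members. miR-702, within the span of Plod3, stood at −3.31, −3.71 and −3.68 in controls and −3.48, −3.21 and −3.35 in knockouts. Its controls held both the lowest value and a value inside the knockout range, and the difference was 0.22 (SE 0.18). miR-1896 differed by 0.41 (SE 0.20), and by 0.23 without knockout 2. miR-671-5p differed by 0.081 (SE 0.21), with probes ranging from −0.29 to 0.61 and so in disagreement on the sign. miR-685 differed by 0.0087 (SE 0.30). miR-690 was the 1 tested member with a lower knockout mean, by −0.11 (SE 0.33), and lay at the floor of −4.32 on control 2 and knockout 2.

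None of the 15 members tested passed in limma, where 0% of the 135 miRNAs tested did. The smallest adjusted p among members was 0.637. At an unadjusted p under 0.05 there were 1 member, miR-1224, and 6 of all 135. The knockout mean was higher for 14 of 15 members and for 71.9% of all tested miRNAs. The median difference was 0.38 over the members and 0.11 over all, so relative to all tested miRNAs the members' median lay 0.28 higher. The genotypes did not overlap for 1 member, which was higher in knockouts, against 7.41% of all tested miRNAs higher, 2.96% lower and 10.4% in either direction.

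The sign of these differences followed the scaling. Without scaling only 3 of 15 members had a higher knockout mean, against 14 of 135 miRNAs, and the medians were −0.071 and −0.31. Quantile scaling gave 11 of 15 and 69 of 135, with medians of 0.16 and 0.0097. With no scaling, the all-probe reference and quantile scaling alike, the members' median stayed above that of all tested miRNAs.

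**Figure D4:**
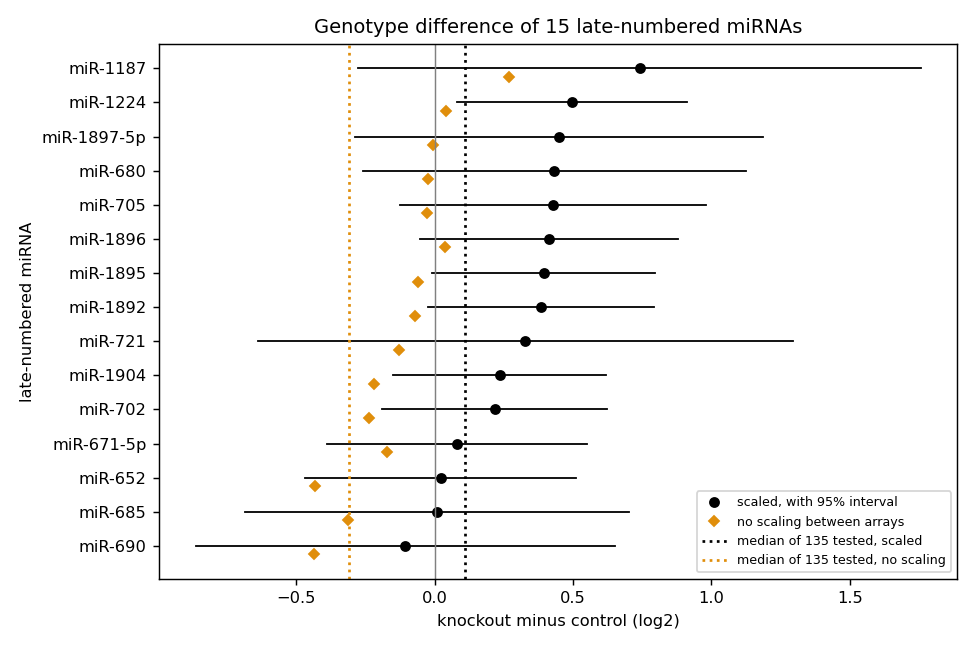
Difference between genotypes (knockout minus control, log2 of scaled signal) of the 15 tested late-numbered miRNAs, with the 95% interval of limma's fit, and, as diamonds, the same without scaling. Dotted lines mark the medians of all 135 tested miRNAs, at 0.11 scaled and −0.31 without scaling. Among the scaled values miR-1224 has the 1 interval that does not reach 0, from 0.081 to 0.91, and miR-690 the 1 negative difference.

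The members had lower correlations with array brightness than the miRNAs as a whole. Brightness was read from the mr_1 control spots, which gave 932, 808 and 803 units on control arrays and 735, 800 and 677 on knockout arrays. By these spots every knockout array was dimmer than every control array, so brightness so measured and genotype move together. The arrays' 75th percentiles also kept this order, at 186 to 227 units in knockouts and 243 to 352 in controls. The hur_1 control spots did not, at 4516 units on knockout 2 and 2830 on control 2. Over the 11 members on all 6 arrays, the median Pearson r of unscaled log2 signal with log2 brightness was −0.075, with 5 of 11 positive. Over all 110 miRNAs on 6 arrays the median was 0.37, and 80.0% were positive. With the genotype means taken out, the median was −0.53 over the members, with 3 of 11 positive, and −0.13 over all, with 43.6% positive. All miRNAs share the same 6 arrays, so these medians are descriptions. As the members were chosen with their relation to brightness known, the p-values of single members below only describe these arrays. No adjusted p over the 110 was under 0.05.

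miR-652 had the highest correlation with brightness among members (Pearson r = 0.74, exact permutation p = 0.1, adjusted p = 0.611, Spearman rho = 0.60, exact permutation p = 0.242, adjusted p = 0.618). Without the 2 arrays farthest from the median brightness, control 1 and knockout 3, its r was −0.22, so the relation rests on those arrays. Within genotypes r was 0.48. miR-1224 ran the other way (Pearson r = −0.52, exact permutation p = 0.289, adjusted p = 0.71, Spearman rho = −0.60, exact permutation p = 0.242, adjusted p = 0.618). Its r was −0.13 without those 2 arrays and −0.67 within genotypes. With the flagged spots kept it was −0.41, and against the 75th percentile 0.44. miR-1897-5p, miR-680 and miR-721 had r of −0.52, −0.51 and −0.52, which became 0.22, 0.13 and 0.56 without the same 2 arrays.

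**Figure D5:**
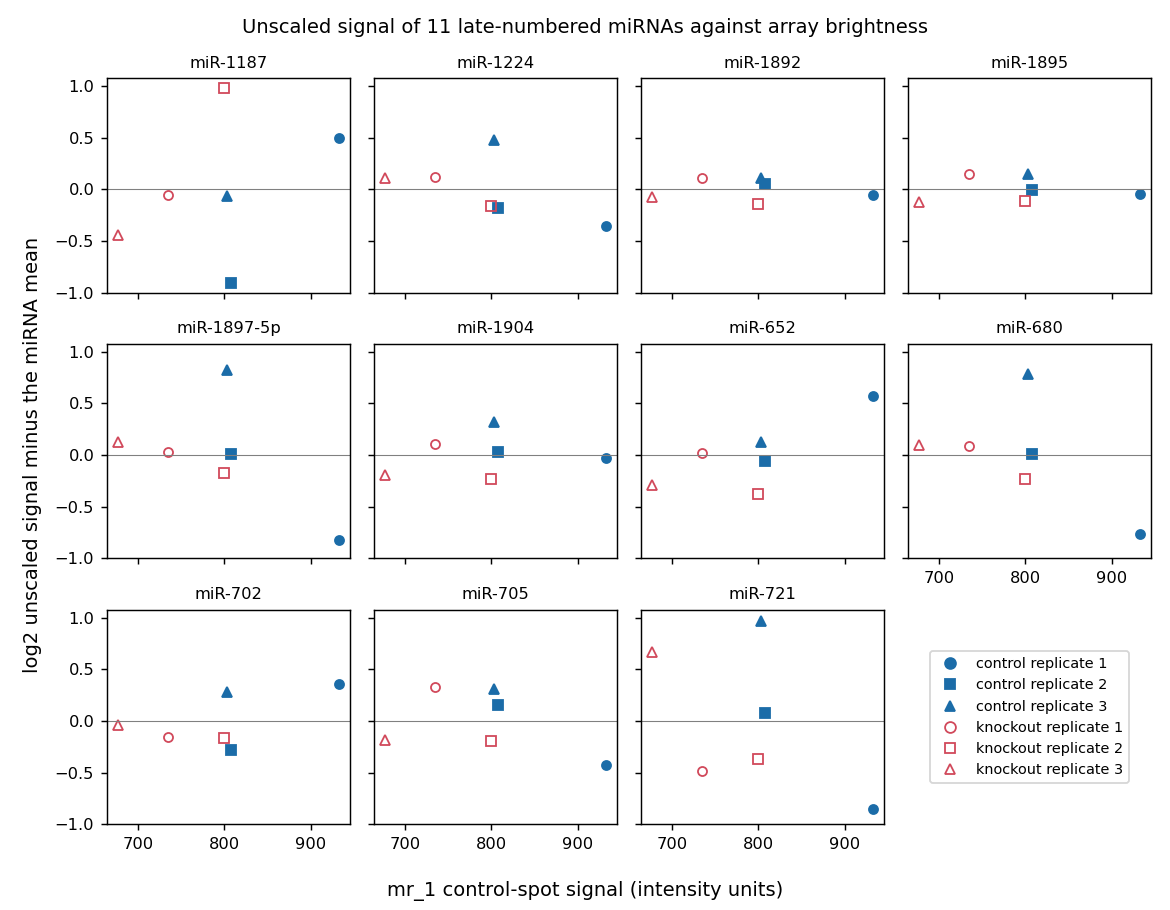
Unscaled log2 signal of each of the 11 late-numbered miRNAs on all 6 arrays, minus its mean, against the signal of the mr_1 control spots (intensity units), filled symbols for control and open symbols for knockout arrays. miR-652 is highest on the brightest array, control 1, where miR-1224, miR-1897-5p, miR-680, miR-705 and miR-721 are lowest.

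The brightest array by these spots, control 1, was not the brightest for the members. It gave the lowest unscaled signal for 6 of the 15 tested members, against 13.3% of all 135 tested miRNAs, and the highest for 3 members, against 34.1%. Control 3 gave the highest signal for 9 of the 15 members and for 50.4% of all. Read against the array's 75th percentile instead of the control spots, the median r was 0.44 over members and 0.77 over all. The sign for the members thus depends on the measure of brightness, and their median lay below that of all miRNAs with both.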

How the data were processed

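Agilent 1-colour mouse miRNA arrays of design 021828 measured Cy3-labelled total RNA, 1 array for each of 6 samples. The authors' spot values are intensity values, with the background subtracted per the file headers, which name Feature Extraction 10.5.1.1 (the submitters' processing notes name 9.1), and with flags for spots well above background and outliers. The deposited gene-level tables hold total intensity and a detection call per miRNA. The deposited series matrix holds log2 values. Its columns correlated at 0.999 or more with log2 of those totals, and their medians lay between 0 and 0.029. The shared maximum of 14.74 is as after quantile scaling, the method being not given in the sources used here. No column was left unmatched to a sample.

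Titles gave each sample's genotype. Probe values were medians of the processed intensity over spots without outlier flags (3 to 20 a probe). The 75th percentile of an array's 200 probes detected on every array was its divisor. Quotients under the 5th percentile of detected values were set to it (log2 −4.32), and log2 was taken. The probe with the highest mean stood for its miRNA. miRNAs detected on at least 3 of 6 arrays were tested (135, of them 15 members) in R 4.3.3 with limma 3.58.1 (lmFit, eBayes). Adjustment was by Benjamini-Hochberg over all 135 at 0.05. The procedure was run on simulated data only with shifts larger than any member's difference here. Its power for smaller differences was not tested. Totals per array were compared with exact permutation tests, two-sided throughout. The number of arrays limits the precision.

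Members, markers and tests were chosen with earlier results of these data known. Named miRNAs were every detected member, the nearest entries and nearest detected entries on each side of the number limit, and miRNAs that share a seed or long run with a member. Replicate numbers were not taken as pairs in the main fit. Correlations of same-numbered deviations were 0.17, −0.072 and 0.37. Controls 1 and 3 were closest to the knockout of the same number, and control 2 to knockout 3. These few values cannot decide whether the samples were paired. The genome assembly GRCm38.p6 is that of the RefSeq tables, since the files name no build. Alternatives were the background correction, scaling, floor, filter, probe rule, deposited totals and matrix, blocks, variance model, detection rule and each array left out.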

Additional observations from a re-analysis of the deposited data

How the results depend on the processing

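No setting called a member in limma. With normexp background correction the smallest adjusted p of a member in limma was 0.208. There 7 members had an unadjusted p under 0.05, as did 25 of all 135. Without scaling these counts were 0 and 26. The count of members whose genotypes do not overlap, 1 here, was 6 with normexp background correction (40 of all 135 higher in knockouts, against 10). It was 2 with the mean of a miRNA's probes (10 higher and 5 lower of all). The count was 0 with the all-probe reference (3 higher and 9 lower of all), no scaling (0 and 37), quantile scaling (2 and 12) and the series matrix (2 and 10). It ran from 1 to 6 when each array was left out, where 11 to 28 of all 135 were higher and 5 to 14 lower. Smaller groups of arrays fail to overlap more often, among all miRNAs as among members. With alternatives chosen after seeing the data the count was 3 without control 1 and knockout 2 (33 of all higher, 16 lower). It was 8 within slide column 1, where 33 of all 135 were higher and 20 lower. The members' median difference, 0.38, was −0.071 without scaling and 0 with no filter, where most members lie at the floor, and 0.21 to 0.50 with each array left out. The difference in summed signal, −150 units, was 93.8 without knockout replicate 2 and 564 without control replicate 3, and ran from −576 to 564 over the arrays left out. The share's difference ran from 1.17 to 2.16 points, and that in members detected from −0.5 to 1, over the arrays left out. With the gene-level detection call the latter was −1. The median r with brightness, −0.075, was 0.44 with the 75th percentile as brightness. Knockout 2 had 2 of 20 mr_1 spots flagged as outliers, and with all spots its mr_1 signal was 733 and the median r 0.14 against 0.48 over all miRNAs (chosen after seeing the data). With the replicate number as a block no member was called (smallest adjusted p = 0.485 in limma), the median difference stayed 0.38, and 3 members had an unadjusted p under 0.05, as did 13 of all 135. The share gave an exact sign-flip p = 0.25 in pairs, the smallest that 3 pairs allow. The cause of these shifts was not tested. Low signal limits the 8 partly detected members, whose values lie near the floor. It also limits miR-1187, at the floor on control 2, and miR-721, near it on control 1.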
